A study of Homo sapiens with 6 samples.

Results

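The nuclear genes for subunits of respiratory chain complexes II, III and IV, of ATP synthase (complex V) and of cytochrome c were followed in HCT116, an established line of human colorectal cancer cells. The 39 genes were chosen by symbol, 4 for complex II, 9 for complex III, 1 for cytochrome c, 10 for complex IV and 15 for complex V, among 60643 genes in the table, and each symbol stood on 1 row. All cells carried a doxycycline-inducible short hairpin RNA against CAPG, an actin filament capping protein. The 3 libraries with doxycycline (+Dox) came from cells induced with 100 ng/µl for 3 days, in the unit the labels give, and are labelled as CAPG knockdown. The 3 libraries without doxycycline (-Dox) came from untreated cells of the same kind, labelled WT although they hold the same hairpin construct. The tissue label is rectum, and the cell type label is a colon cancer cell. Cells given doxycycline without this hairpin were not analysed here, nor was another hairpin against CAPG. The drug, the loss of CAPG and other effects of the hairpin thus cannot be told apart. The sources used here do not say whether the cells were 1 clone or whether the replicates were separate cultures, so each p-value reflects the spread among the 6 libraries alone and that spread may be technical.

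Electrons from succinate enter the inner mitochondrial membrane through complex II, which is also the succinate dehydrogenase of the citric acid cycle. Complex III passes electrons from ubiquinol to cytochrome c, complex IV passes them from cytochrome c to oxygen, and complex V uses the proton gradient to make ATP. Complexes III, IV and V join nuclear subunits to a few subunits made from mitochondrial DNA, while all complex II subunits are nuclear.

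Values are FPKM, that is, fragment numbers divided by transcript length and by the mapped fragments of the library. The depth, estimated from the steps between the lowest values, was 18250000 to 18450000 fragments in the +Dox libraries and 14450000 to 18450000 in the -Dox libraries. For a transcript of 1 kb, 3 fragments then equal 0.163 to 0.208 FPKM, a limit for counting error only. At these depths only 46.1% to 52.1% of low values in single-exon genes lay within 0.1 of whole fragments. The depth and this limit are thus rough. CAPG had 8.18, 8.03 and 9.97 FPKM with doxycycline, against 61.1, 56.9 and 53.7 FPKM without it (log2 change -2.59, limma adjusted p = 7.24e-06). Of 8 colorectal epithelial markers 6 reached 1 FPKM in every library, CDX1 was listed at 0 throughout and VIL1 stayed below 1 FPKM. Markers of fibroblasts, leukocytes and endothelium summed to 0.177 to 9.8 FPKM per list with doxycycline and 0.195 to 11.3 FPKM without it, and most of the fibroblast sum was COL1A1.

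Of the 39 subunit genes, 1 rose and 2 fell with doxycycline. ATP5MC3, which encodes the membrane rotor subunit c of ATP synthase, was higher. UQCRFS1, the Rieske iron-sulfur protein of complex III, and COX8A, a small membrane subunit of complex IV, were lower. The test was limma on log2(FPKM + 1) over 14475 genes, with p-values adjusted by the Benjamini-Hochberg method and a threshold of 0.05. It called 8.46% of all genes tested, 3.69% higher and 4.77% lower, so 3 of 39 members is a share near the background. All 39 members reached 1 FPKM in every library and all were tested. Without adjustment, limma p was under 0.05 for 8 members that were higher and 3 that were lower, where 13.6% and 14.3% of all tested genes were. The members' log2 changes ran from -0.47 (COX8A) to 0.40 (ATP5MC3). In bulk RNA, fewer cells with an mRNA and less of it per cell cannot be told apart.

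**Figure D1:**
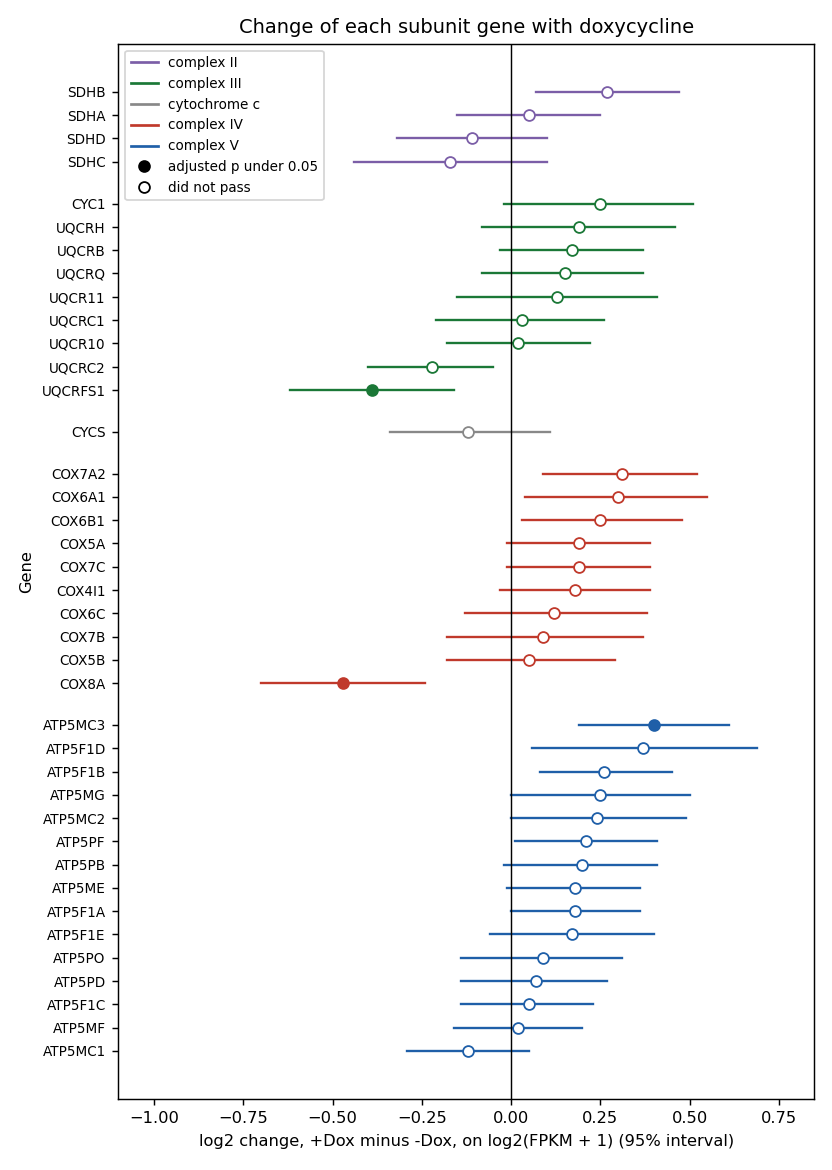
Log2 change of each of the 39 subunit genes, +Dox minus -Dox, on log2(FPKM + 1), with the 95% interval from limma and 3 libraries a group; filled points passed an adjusted p of 0.05. ATP5MC3 lies right of 0 among complex V genes, and UQCRFS1 and COX8A lie furthest left in complexes III and IV.

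Most of the other changes were small and positive. The log2 change was above 0 in 32 of 39 members, where it was in 49.6% of all tested genes, and with every library scaled to the same FPKM total it was above 0 in 26 of 39 members and 41.4% of all genes. The median over the members was 0.17, against 0 over all genes tested. The groups did not overlap in 15 members that were higher with doxycycline and 4 that were lower, against 17% and 17.5% of all tested genes. Replicate 3 with doxycycline held the highest of the 6 values in 31 of 39 members, where it did so in 28.0% of all tested genes. Measured against the mean of the -Dox libraries on the log2 scale, the median member lay at 0.03, 0.07 and 0.31 in +Dox replicates 1, 2 and 3, and at 0.02, 0.00 and -0.02 in -Dox replicates 1, 2 and 3. Without +Dox replicate 3, the median change was 0.06 and 24 of 39 members were above 0, and the same 3 genes were called, with 6.91% of all genes called.

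That library also stood apart in other measures. Its FPKM values summed to 586911, against 529231 and 534987 in the other +Dox libraries and 521832 to 536037 in the -Dox libraries. In 966 tested protein-coding genes whose longest transcript has at most 1500 bases, the median shift against the -Dox mean was 0.25 in +Dox replicate 3, and 0.00 and 0.01 in replicates 1 and 2. In 10968 genes with longer transcripts it was -0.01, -0.01 and 0.00 in +Dox replicates 3, 1 and 2. Of the 39 members 17 had a longest transcript of at most 1500 bases. The median longest transcript of the members was 1587 bases, against 3685 bases over the tested protein-coding genes. The median log2 change between the groups was 0.15 in these 17 members, 0.17 in all 39 members and 0.08 in the 966 short genes. With each library corrected for trends over joined exon length and GC content the members' median was 0.14. Joined exon length covers all annotated exons of a gene and is not the longest transcript used above. The part of this library and of transcript length in the members' median was not tested beyond these values. The 39 members together made up 1.12%, 1.14% and 1.24% of the summed FPKM in +Dox replicates 1, 2 and 3, and 1.11%, 1.1% and 1.11% in -Dox replicates 1, 2 and 3.

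**Figure D2:**
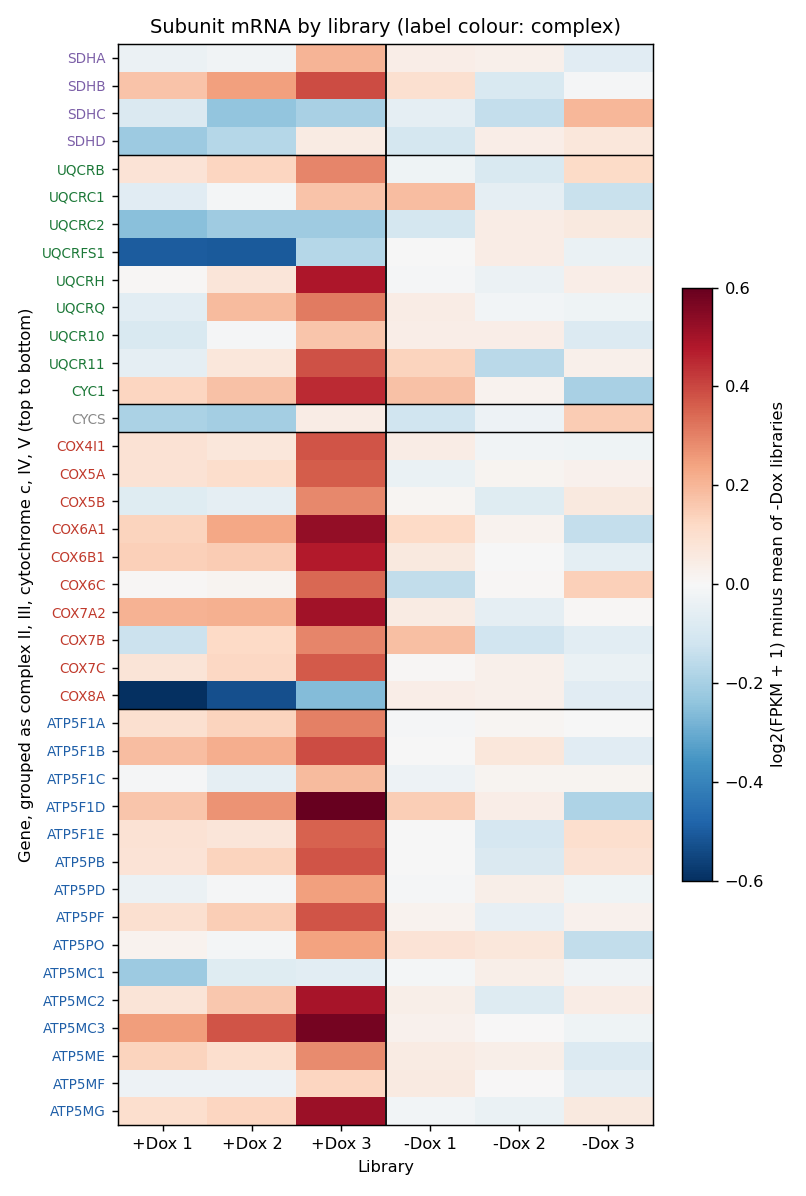
Each row is a subunit gene and each column a library; colour gives log2(FPKM + 1) minus the mean of the 3 -Dox libraries, red for higher and blue for lower, and label colour gives the complex. The +Dox 3 column is the reddest (median 0.31, against 0.03 and 0.07 in +Dox 1 and 2), while UQCRFS1 and COX8A are blue in all 3 +Dox libraries.

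By complex, the median log2 change was -0.03 in complex II, 0.13 in complex III, 0.18 in complex IV and 0.18 in complex V, and CYCS stood at -0.12. Without +Dox replicate 3 these were -0.10, 0.01, 0.09, 0.11 and -0.20. Differences between complexes were not tested.

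In complex II, 0 of 4 genes passed the test, where limma called 8.46% of all genes, and SDHB alone had an unadjusted p under 0.05. SDHB, the iron-sulfur subunit that hands electrons towards ubiquinone, had 53.9, 56.9 and 63.1 FPKM with doxycycline, against 51.2, 44.8 and 47.6 FPKM without it. The groups did not overlap, yet the change missed the threshold (log2 0.27, 95% interval 0.07 to 0.47, limma adjusted p = 0.0883). SDHD, a membrane anchor, had 64.0, 66.1 and 77.2 FPKM with doxycycline, against 69.1, 76.7 and 78.1 FPKM without it (log2 -0.11, interval -0.32 to 0.10, limma adjusted p = 0.476). SDHA, the flavoprotein that oxidises succinate, averaged 60.4 ± 5.88 FPKM with doxycycline and 58.2 ± 2.44 FPKM without it (SD, n = 3 each). Its transcribed pseudogene SDHAP1 averaged 14.9 FPKM with doxycycline and 12.3 FPKM without it and can share its reads.

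The row of SDHC, the other membrane anchor, cannot be read as its coding mRNA. The deposited locus runs from 161368022 to 161371964 on chromosome 1 (GRCh38), which is 6.5% of the GENCODE span of the gene. It covers none of the RefSeq gene, which runs from 161314381 to 161363206. Of 14398 tested genes with a GENCODE locus, SDHC was the 1 gene whose deposited locus held under 10% of the span, and the other 38 members held at least 95%. The row had 4, 3.51 and 3.64 FPKM with doxycycline, against 4.11, 3.81 and 5.10 FPKM without it (log2 -0.17, interval -0.44 to 0.10, limma adjusted p = 0.383). Its processed pseudogene SDHCP4 had 7.94, 9.15 and 7.51 FPKM with doxycycline, against 6.61, 6.12 and 7.47 FPKM without it, above the SDHC row in every library. With SDHC left out, the median change of complex II was 0.05 and that of the remaining 38 members was 0.17.

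In complex III, UQCRFS1 fell and the other 8 genes did not pass the test. UQCRFS1 carries the iron-sulfur cluster that takes the first electron from ubiquinol. The gene (ENSG00000169021) lies on chromosome 19 from 29205320 to 29213151, minus strand. It had 24.2, 24.1 and 30.6 FPKM with doxycycline, against 34.6, 35.7 and 33.6 FPKM without it. Every +Dox library lay below every -Dox library, with +Dox replicate 3 nearest to them. The mean was 26.3 ± 3.71 FPKM with doxycycline and 34.6 ± 1.04 FPKM without it (log2 -0.39, interval -0.62 to -0.16, limma adjusted p = 0.047). The call was lost without any 1 library other than +Dox replicate 3, with limma adjusted p between 0.0851 and 0.159 (0.0121 without +Dox replicate 3). Its processed pseudogene UQCRFS1P1 on chromosome 22 can share its reads. The pseudogene row had 14.2, 13.3 and 14.1 FPKM with doxycycline, against 19.0, 16.4 and 17.9 FPKM without it, again with no overlap (log2 -0.33, limma adjusted p = 0.0502). The sum of both rows averaged 40.2 ± 3.94 FPKM with doxycycline and 52.4 ± 1.09 FPKM without it.

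UQCRC2, a core protein on the matrix side of complex III, had 98.3, 101 and 101 FPKM with doxycycline, against 109, 121 and 122 FPKM without it (log2 -0.22, interval -0.40 to -0.05, limma adjusted p = 0.0974). CYC1, the cytochrome c1 subunit that reduces cytochrome c, had 124, 128 and 155 FPKM with doxycycline, against 128, 115 and 98.7 FPKM without it (log2 0.25, interval -0.02 to 0.51, limma adjusted p = 0.206). UQCRC2 groups were apart and CYC1 groups overlapped, and neither change passed. The small subunits UQCRB, UQCRH, UQCRQ, UQCR10 and UQCR11 and the core protein UQCRC1 had log2 changes between 0.02 and 0.19 with limma adjusted p between 0.262 and 0.895, and all 6 overlapped between the groups. UQCRH has a near-identical intronless copy, UQCRHL, at 44.7 ± 4.07 FPKM with doxycycline and 39 ± 1.28 FPKM without it, so their reads can be split between them. CYCS, the cytochrome c that carries electrons to complex IV and also triggers the apoptosome in the cytosol, had 184, 182 and 216 FPKM with doxycycline, against 193, 205 and 233 FPKM without it. The groups overlapped (log2 -0.12, interval -0.34 to 0.11, limma adjusted p = 0.485).

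Complex IV showed the largest change of any member, a fall in COX8A. The gene (ENSG00000176340) lies on chromosome 11 from 63974620 to 63976543, plus strand, and encodes a small subunit that spans the membrane. It had 205, 220 and 265 FPKM with doxycycline, against 326, 324 and 303 FPKM without it. The groups did not overlap, and +Dox replicate 3 was again the highest of its group. The mean was 230 ± 31.2 FPKM with doxycycline and 318 ± 12.6 FPKM without it (log2 -0.47, interval -0.70 to -0.24, limma adjusted p = 0.0252). The call held without +Dox replicate 3 (0.00495) and was lost without any other 1 library, with limma adjusted p between 0.0557 and 0.103.

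The other 9 complex IV genes all had log2 changes above 0, from 0.05 (COX5B) to 0.31 (COX7A2), and none passed the adjusted limma test, which called 8.46% of all genes. Of these 9 genes 3 were higher at an unadjusted p under 0.05, against 13.6% of all tested genes. COX7A2, a membrane subunit in its widely expressed form, had 97.6, 97.8 and 120 FPKM with doxycycline, against 87.2, 81.2 and 84.6 FPKM without it (interval 0.09 to 0.52, limma adjusted p = 0.0744). COX6A1, also the widely expressed form, had 368, 395 and 484 FPKM with doxycycline, against 365, 341 and 304 FPKM without it (log2 0.30, interval 0.04 to 0.55, limma adjusted p = 0.128). In both genes the 2 groups were apart, in COX6A1 by little. A processed pseudogene, COX6A1P2, averaged 168 ± 24.1 FPKM with doxycycline and 133 ± 13.6 FPKM without it and can share reads with COX6A1. COX6B1, a peripheral subunit facing cytochrome c, averaged 253 ± 34.5 FPKM with doxycycline and 210 ± 8.66 FPKM without it (log2 0.25, limma adjusted p = 0.138). COX5A, COX7C and COX4I1 had log2 changes of 0.19, 0.19 and 0.18 with groups that did not overlap, while COX5B, COX6C and COX7B overlapped between the groups. The tissue isoforms of complex IV were nearly silent. COX4I2, COX6A2 and COX7B2 were listed at 0 in all 6 libraries, COX7A1 and COX8C did not exceed 0.235 FPKM, and COX6B2 averaged 0.842 FPKM with doxycycline and 1.32 FPKM without it. At the same time COX4I1 averaged 512 ± 63.7 FPKM with doxycycline and 450 ± 12.4 FPKM without it, the highest mean of any member.

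Because most complex IV genes shifted together in +Dox replicate 3, COX8A was also set against the mean log2 level of the other 9 genes of its complex within each library. This difference was 0.28, 0.32 and 0.31 with doxycycline, against 0.97, 1.01 and 0.91 without it, a change of -0.66 relative to its complex. For UQCRFS1 against the other 8 complex III genes it was -2.11, -2.20 and -2.08 with doxycycline, against -1.70, -1.57 and -1.67 without it, a change of -0.48. For ATP5MC3, the c-subunit gene of complex V, it was 0.61, 0.71 and 0.67 with doxycycline, against 0.43, 0.42 and 0.41 without it, a change of 0.25 where its own log2 change was 0.40. In these 3 genes +Dox replicate 3 no longer stood apart from replicates 1 and 2 on this scale. Members that did not pass the limma test had relative changes of similar size to that of ATP5MC3, among them SDHB at 0.35 (SD 0.06 with doxycycline and 0.12 without it), ATP5MC1 at -0.31 (SD 0.12 with doxycycline and 0.04 without it) and UQCRC2 at -0.29 (SD 0.16 with doxycycline and 0.15 without it). The 3 genes that SDHB was set against include the SDHC row, which cannot be read as its coding mRNA. All these relative values are a description and were not tested.

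**Figure D3:**
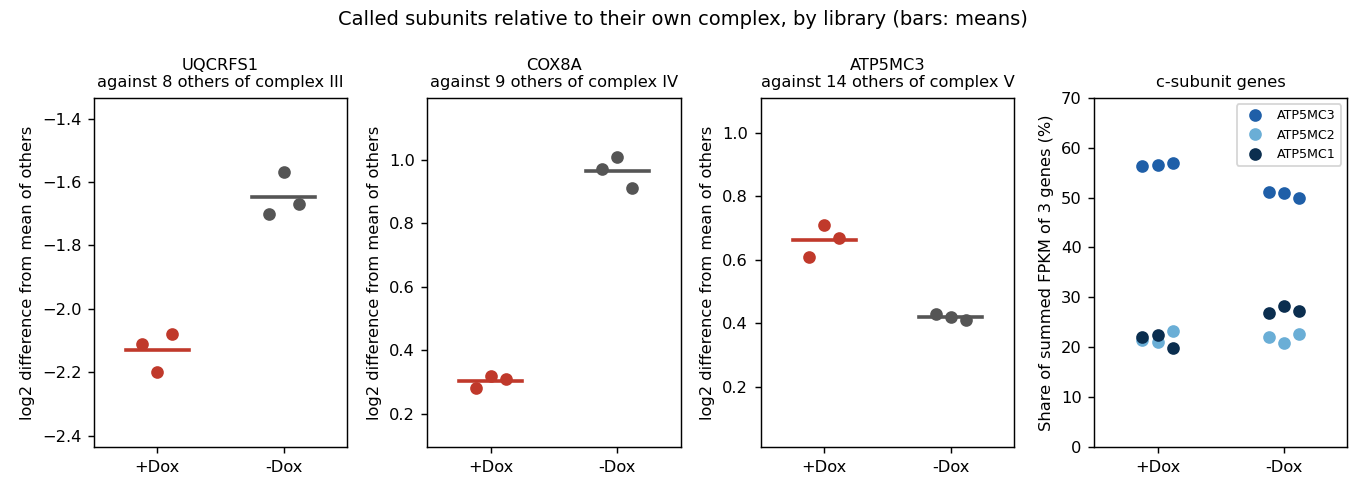
Left 3 panels: log2(FPKM + 1) of UQCRFS1, COX8A and ATP5MC3 minus the mean of the other genes of the same complex, by library, with group means as bars. Right panel: share of the summed FPKM of the 3 c-subunit genes held by each, by library; COX8A lies at 0.28 to 0.32 with doxycycline and at 0.91 to 1.01 without it, and ATP5MC3 holds 56.4% to 57% with doxycycline and 50% to 51.1% without it.

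The promoters of both genes that fell are shown because they differ in the motifs of the factors best known for respiratory chain genes. Each runs from 250 bases before to 50 bases after the start site, from RefSeq on GRCh38.p14, 5′ to 3′ along the gene. UQCRFS1 is chr19:29213102-29213401 on the minus strand and COX8A is chr11:63974370-63974669 on the plus strand. Capitals mark matches, on either strand, to the motif of nuclear respiratory factor 1 (NRF1) in UQCRFS1 and to CCGGAAG, the core bound by ETS factors such as GABP, in COX8A.
UQCRFS1: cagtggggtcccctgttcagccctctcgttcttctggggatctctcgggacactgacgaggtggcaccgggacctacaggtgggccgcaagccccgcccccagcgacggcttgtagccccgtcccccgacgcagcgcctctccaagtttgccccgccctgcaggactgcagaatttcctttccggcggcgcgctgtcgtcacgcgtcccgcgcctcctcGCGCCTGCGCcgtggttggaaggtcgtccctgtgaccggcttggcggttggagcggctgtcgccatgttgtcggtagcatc
COX8A: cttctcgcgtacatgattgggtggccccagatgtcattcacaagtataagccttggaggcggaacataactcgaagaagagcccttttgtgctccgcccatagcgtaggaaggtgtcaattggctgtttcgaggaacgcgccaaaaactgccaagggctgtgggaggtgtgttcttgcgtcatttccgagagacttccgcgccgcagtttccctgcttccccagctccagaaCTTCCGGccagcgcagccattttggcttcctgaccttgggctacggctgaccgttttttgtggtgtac
The NRF1 match in UQCRFS1 starts at -31 from the start site and the ETS match in COX8A at -18. Neither promoter held the other's motif, and neither held ATGGCGG, the core of YY1, on either strand. Of 39 members 31 had a promoter in the table, and ATP5MC3 was among the 8 without one. The NRF1 motif was in 9 of 31 member promoters (29%), against 12.2% of 9593 promoters of tested protein-coding genes and 5.78% of all 35116 promoters. The ETS core was in 14 of 31 (45.2%), against 20.2% and 10.3%, and the YY1 core in 6 of 31 (19.4%), against 10.9% and 5.55%. CCAAT, the core of the NF-Y box, was in 12 of 31 (38.7%), against 36.8% and 34.6%, and COX8A held it as well. By complex, NRF1 matches were in 2 of 3 complex II, 4 of 7 complex III, 0 of 9 complex IV and 3 of 11 complex V promoters, and ETS matches in 2, 3, 5 and 4 of them. A match is a description of the letters and not evidence of binding.

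In complex V, ATP5MC3 rose and the other 14 genes did not pass the test. The gene (ENSG00000154518) lies on chromosome 2 from 175176258 to 175184607, minus strand. It is 1 of 3 genes, with ATP5MC1 and ATP5MC2, that encode the same mature c subunit behind different import sequences. ATP5MC3 had 193, 211 and 242 FPKM with doxycycline, against 165, 162 and 159 FPKM without it. All +Dox libraries lay above all -Dox libraries, and the mean was 215 ± 24.8 FPKM with doxycycline and 162 ± 3.40 FPKM without it (log2 0.40, interval 0.19 to 0.61, limma adjusted p = 0.0314). The call held without +Dox replicate 1 (limma adjusted p = 0.0316) or 3 (0.0272) and was lost without any other 1 library, with limma adjusted p between 0.0778 and 0.116 and log2 changes between 0.39 and 0.42.

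Neither of the other c-subunit genes passed the test. ATP5MC1 had 75.3, 83.2 and 84.0 FPKM with doxycycline, against 86.9, 89.8 and 86.4 FPKM without it (log2 -0.12, limma adjusted p = 0.35). ATP5MC2 had 73.7, 78.4 and 98.9 FPKM with doxycycline, against 71.6, 66.2 and 72.0 FPKM without it (log2 0.24, limma adjusted p = 0.186). Of the summed FPKM of the 3 genes, ATP5MC3 held 56.7% ± 0.268 with doxycycline and 50.7% ± 0.569 without it, and ATP5MC1 held 21.4% ± 1.40 with doxycycline and 27.4% ± 0.716 without it (SD, n = 3 each). ATP5MC2 held 22.0% ± 1.16 with doxycycline and 21.9% ± 0.974 without it. These shares do not overlap between groups for ATP5MC3 and ATP5MC1. The c-subunit sum was 342, 372 and 425 FPKM with doxycycline, against 324, 318 and 317 FPKM without it.

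The catalytic head of ATP synthase and its central stalk were measured through ATP5F1A to ATP5F1E, which encode the subunits alpha to epsilon. ATP5F1B, the catalytic beta subunit, had 478, 489 and 551 FPKM with doxycycline, against 420, 440 and 401 FPKM without it (log2 0.26, interval 0.08 to 0.45, limma adjusted p = 0.0781). ATP5F1D, the delta subunit of the central stalk, had 79.8, 85.8 and 115 FPKM with doxycycline, against 78.7, 73.1 and 62.3 FPKM without it (log2 0.37, interval 0.06 to 0.69, limma adjusted p = 0.119). The groups were apart in both genes, narrowly in ATP5F1D, and neither change passed. ATP5F1A, ATP5F1C and ATP5F1E had log2 changes of 0.18, 0.05 and 0.17. The other stalk genes ATP5PB, ATP5PD, ATP5PF and ATP5PO and the membrane subunit genes ATP5ME, ATP5MF and ATP5MG lay between 0.02 and 0.25. Their limma adjusted p lay between 0.167 and 0.89. ATP5PF shares its locus with the oppositely transcribed GABPA, which averaged 9.83 FPKM with doxycycline and 11.4 FPKM without it. Pseudogenes that reached 1 FPKM in some library existed for 14 members, 22 pseudogenes in all, but for neither COX8A nor ATP5MC3. In all, 10 members overlapped another gene that reached 1 FPKM, 9 of them on the opposite strand, and whether counting used strand is not stated in the sources here.

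**Figure D4:**
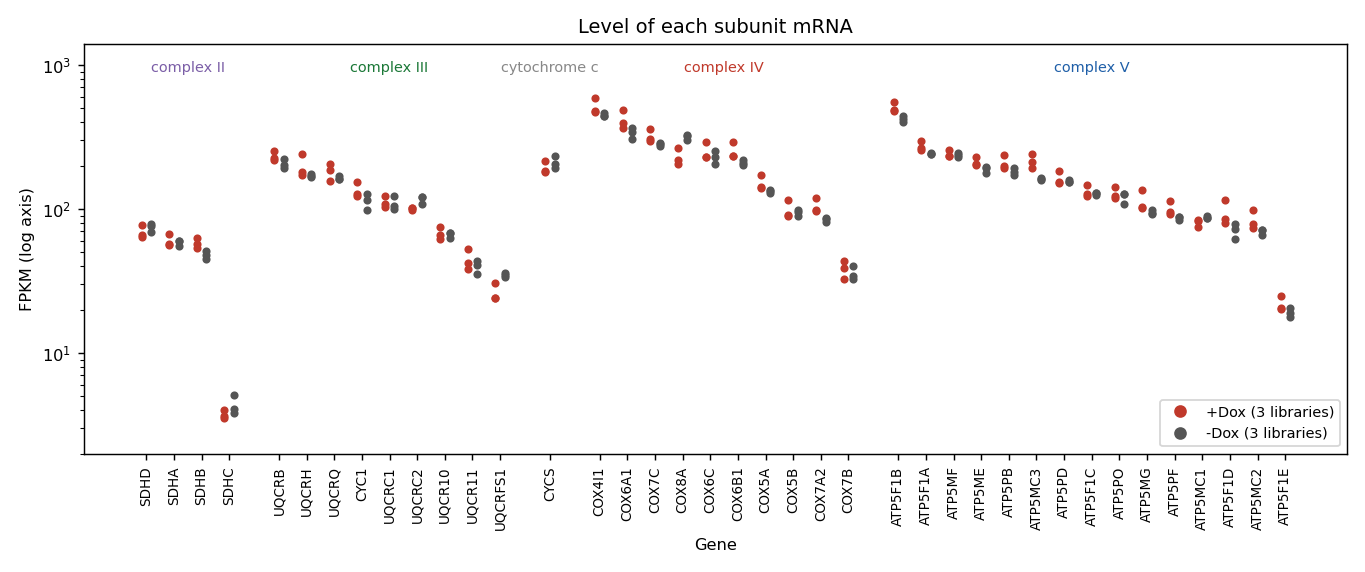
FPKM of each member on a log axis, +Dox libraries (red) left of -Dox libraries (grey), sorted by level within each complex. COX4I1 and ATP5F1B are highest, the SDHC row is lowest, and for most genes the 2 groups lie close together.

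Levels per length differed more between subunits of a complex than between the groups. The median member of complex II averaged 59.2 FPKM with doxycycline and 53 FPKM without it, with the SDHC row counted. Without that row it was SDHA, at 60.4 FPKM with doxycycline and 58.2 FPKM without it. In complex III the median member averaged 111 FPKM with doxycycline and 114 FPKM without it. In complex IV it was 240 FPKM with doxycycline and 220 FPKM without it, and in complex V 133 FPKM with doxycycline and 129 FPKM without it. In complex III the means ran from UQCRFS1, the lowest, to UQCRB at 232 ± 18.2 FPKM with doxycycline and 207 ± 15.8 FPKM without it. In complex V they ran from ATP5F1E at 21.8 ± 2.53 FPKM with doxycycline and 19.2 ± 1.40 FPKM without it to ATP5F1B at 506 ± 39.1 FPKM with doxycycline and 421 ± 19.5 FPKM without it. The mitochondrially encoded partners MT-CYB, MT-CO1, MT-CO2, MT-CO3, MT-ATP6 and MT-ATP8 had log2 changes between -0.09 and 0.13, and 0 of 6 passed the adjusted limma test or had an unadjusted p under 0.05. Of these MT-ATP6, a membrane subunit of complex V, had the smallest p, with 5790, 5820 and 6320 FPKM with doxycycline, against 5400, 5620 and 5340 FPKM without it (limma adjusted p = 0.268).

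Among genes that build or regulate these complexes, a few passed the test, which called 3.69% of all genes higher and 4.77% lower. Of the assembly factors, 1 of 4 for complex II fell, 0 of 6 for complex III passed, and 1 of 29 for complex IV and 1 of 5 for complex V rose. SDHAF3, which protects the iron-sulfur subunit of complex II during assembly, averaged 23.1 ± 1.87 FPKM with doxycycline and 30.4 ± 1.47 FPKM without it (log2 -0.38, limma adjusted p = 0.0312). COX19, a factor in copper delivery to complex IV, averaged 6.91 ± 0.458 FPKM with doxycycline and 4.99 ± 0.130 FPKM without it (log2 0.40, limma adjusted p = 0.0357). TMEM70, which helps assemble the c-subunit ring, averaged 38.3 ± 3.29 FPKM with doxycycline and 29.7 ± 1.79 FPKM without it (log2 0.36, limma adjusted p = 0.0434). LYRM7, which delivers the Rieske protein into complex III, averaged 3.10 ± 0.200 FPKM with doxycycline and 5.02 ± 1.42 FPKM without it and missed the threshold (log2 -0.53, limma adjusted p = 0.0678). Of 8 tested further subunits and isoforms, COX7A2L, which links complexes III and IV, fell to 32.7, 33.7 and 41.1 FPKM with doxycycline, against 46.5, 47.4 and 51.0 FPKM without it (log2 -0.43, limma adjusted p = 0.0328).

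Of 10 tested regulators of respiratory chain transcription 2 rose, where 3.69% of all genes did. TFAM, which packages mitochondrial DNA and helps start its transcription, had 44.6, 44.7 and 40.3 FPKM with doxycycline, against 30.1, 32.7 and 33.4 FPKM without it (log2 0.42, limma adjusted p = 0.0208). For TFAM, +Dox replicate 3 was the lowest of its group. GABPB1, a subunit of the ETS factor GABP, averaged 11.9 ± 1.75 FPKM with doxycycline and 8.13 ± 0.817 FPKM without it (log2 0.50, limma adjusted p = 0.0365). NRF1 had a log2 change of 0.06 (limma adjusted p = 0.731). Of 37 complex I subunit genes 3 rose (NDUFA6, NDUFA13 and NDUFC2) and 1 fell (NDUFB1), where 8.46% of all genes were called in either direction, with a median log2 change of 0.23 and with 29 highest in +Dox replicate 3. NDUFC2, a small membrane subunit, averaged 188 ± 18.7 FPKM with doxycycline and 141 ± 9.61 FPKM without it (limma adjusted p = 0.0302), and NDUFB1 averaged 72 ± 9.79 FPKM with doxycycline and 99.5 ± 13.2 FPKM without it (limma adjusted p = 0.0477). These assembly, isoform, regulator and complex I lists held 10 calls among the tested genes counted above, where limma called 8.46% of all genes. Without +Dox replicate 1, 2 and 3, then -Dox replicate 1, 2 and 3, the number of the 10 that kept their call was 3, 0, 6, 0, 0 and 1. In the same order, 4.23%, 2.68%, 6.91%, 3.49%, 1.54% and 4.64% of all genes were called.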

How the data were processed

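The authors deposited 1 value per gene and library for 60643 genes. The deposited header names no unit, and the values were treated as FPKM because they were not whole and their sums per library differed. Per the submitters' processing notes, the tools included STAR, RSEM, kallisto, Bowtie, BWA and Cufflinks, with no version or role, and the build was hg19. The loci were those of GRCh38, zero-based at the start, for 39321 of the 39331 versioned identifiers that GENCODE 29 also holds, so coordinates are given on GRCh38, counted from 1. The plan assumed FPKM, and no count test was run, since only 46.1% to 52.1% of low values in 3991 single-exon genes lay within 0.1 of whole fragments.

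The 14475 genes that reached 1 FPKM in 3 or more libraries entered limma 3.58.1 (R 4.3.3) as log2(FPKM + 1), with a trended, robust empirical Bayes fit, group as the only term, two-sided p-values and Benjamini-Hochberg adjustment over all genes tested. Log2 changes are on that scale, which understates changes of low genes. Length and GC correction removed a spline trend (4 degrees of freedom) from each library over 14406 genes. Length there was the log2 of all annotated exons of a gene joined, and GC content was that of the longest transcript. Values in every library are given for members past the threshold and for the 3 smallest p-values of each complex. ATP5MC1, ATP5MC2 and the pseudogenes were named after their values were seen. Of the partner lists, genes past the threshold are named, up to 4, or otherwise the gene with the smallest p. The members and lists were chosen with earlier results of these data known. There were 14 alternatives, and leaving out SDHC was added after seeing the data. Promoters came from RefSeq (GRCh38.p14).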

Additional observations from a re-analysis of the deposited data

How the results depend on the processing

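All 14 alternatives kept the fall of CAPG (log2 -2.53 to -2.70), and the median change of the members stayed between 0.06 and 0.21. The number of calls depended on the processing. Over all genes 1225 were called, against 153 with no filter, 211 with the replicate number as a block, 2601 with the length and GC correction and 223 to 1000 with 1 library left out. Of the members 3 were called (8.46% of all genes), against 0 with no filter (0.473%), 1 with plain empirical Bayes (6.63%) and 0 with the replicate block (1.46%). The length and GC correction called 10 members (18.1% of all genes), and fits with 1 library left out called 0 to 3 (1.54% to 6.91%). The count was 1 without +Dox replicate 1, 3 without +Dox replicate 3 and 0 without any other library. The 10 were SDHB, CYC1, COX6B1, COX7A2, ATP5F1B, ATP5F1D and ATP5MC3, higher, and UQCRC2, UQCRFS1 and COX8A, lower. With that correction and the block 3 were called, ATP5F1B (limma adjusted p = 0.0481), UQCRFS1 and COX8A, where 12.4% of all genes were. ATP5MC3 lost its call there (limma adjusted p = 0.0561). With equal FPKM totals 4 were called, where 9.31% of all genes were, since ATP5F1B (limma adjusted p = 0.0355) joined the 3 of the main fit. Of the partner genes 10 were called (8.46% of all genes), against 0 with no filter (0.473%), 2 with plain empirical Bayes (6.63%) and 0 with the replicate block (1.46%). The length and GC correction called 28 (18.1%), that correction with the block 20 (12.4%), and fits with 1 library left out 0 to 11 (1.54% to 6.91%). With the equal FPKM totals 15 partner genes were called (9.31% of all genes), likewise 15 with median-of-ratios scaling (9.60%). Same-numbered deviations from the group means correlated at -0.04, 0.01 and -0.02, and differently numbered ones between -0.09 and 0.1. No pairing by replicate number was seen, but 3 libraries a group cannot exclude it. Members near 0 changed sign: with equal totals SDHA was 0.00, UQCRC1 -0.03, UQCR10 -0.03, COX5B 0.00, ATP5F1C -0.01 and ATP5MF -0.03, and UQCR10 was -0.02 with the length and GC correction, with or without the block. With 1 library left out, ranges that crossed or reached 0 were SDHA -0.03 to 0.09, UQCRC1 -0.05 to 0.12, UQCR10 -0.05 to 0.08, COX5B -0.06 to 0.12, COX7B 0.00 to 0.21, ATP5F1C -0.02 to 0.10, ATP5PD -0.02 to 0.12 and ATP5MF -0.03 to 0.05. The cause of these changes was not tested; leaving out a library also lowers the number of samples. FPKM keeps no read counts, so depth limits could only be estimated.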

Other observations

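PET100, an assembly factor of complex IV, varied widely between libraries, with 24.4, 11.6 and 18.9 FPKM with doxycycline, against 11.1, 26.1 and 2.72 FPKM without it, so its log2 change of 0.80 had a 95% interval of -1.46 to 3.05 (limma adjusted p = 0.603). The promoter of SDHA held 4 matches to the NRF1 motif, starting at -166, -117, -68 and -19 from the start site.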
